A study of Homo sapiens with 6 samples.

Results

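A set of 48 genes that are classically induced by interferon was followed through a short pulse of interleukin-6 (IL-6) in INA-6 cells, an established human multiple myeloma line whose growth depends on this cytokine. The genes were selected by symbol as interferon-responsive, with earlier results of these data known. Of the 48 genes, 47 had at least 1 probe on the array and only CMPK2, a mitochondrial nucleotide kinase, was not analysed here. They were 47 of the 17411 genes with a probe. All cells had been deprived of IL-6 for 13 h. RNA of 3 samples was taken at that point (withdrawn) and RNA of 3 samples after 1 h of renewed IL-6 (restimulated), which makes 6 arrays of 1 cell line. Per the methods, total RNA was labeled with Cy3 after random-primed amplification and hybridized to a custom Agilent array of 243504 spots that carries mRNA probes beside probes for non-coding regions. The labels call the samples biological replicates but do not say that cultures were separate, so the p-values below cover the scatter among these 6 RNA samples, which may be technical. Values are deposited, quantile-normalized log2 intensities, in which a difference of 1 is a doubling and every difference is relative to the average spot of the array. The number of arrays limits the precision, since 3 against 3 cannot give an exact permutation p below 0.1.

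Interferons of type I signal through JAK1 and TYK2 to a complex that holds STAT2 and IRF9 and binds a DNA element called the interferon-stimulated response element (ISRE) in front of antiviral genes. Interferon-gamma and IL-6 activate STAT dimers that bind a different element, the gamma-activated sequence (GAS), and IL-6 does so mainly through STAT3. The products of the responsive genes sense viral RNA, block viral entry or replication, attach the ubiquitin-like protein ISG15 to other proteins or feed back on the pathway as transcription factors. Myeloma cells are malignant plasma cells, for which IL-6 is a known survival factor.

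The elements that separate these signals are shown first. Matches to the ISRE occurred both among the genes that differed most between the groups and among genes that stayed near background. Windows of 300 bases around RefSeq start sites (GRCh38.p14) were matched for 37 of the 48 genes and searched on both strands for the ISRE core GAAA-NN-GAAA and the GAS core TTC-NNN-GAA, with N for any base. Matches of either kind may overlap. The sequences below run 5′ to 3′ on the strand of the gene and end at the base before the start site, with matches in capitals. For PARP9 and DTX3L, which start head to head, only a stretch of 30 bases around the ISRE core that both windows hold is given, on the strand of DTX3L. Windows were at chr3:122564322-122564351 (+) for this pair, chr3:122680589-122680838 (+) for PARP14, chr21:41431800-41432049 (+) for 1 start site of MX1, chr14:24161015-24161264 (+) for IRF9, chr5:132490774-132491023 (-) for IRF1 and chr10:89392373-89392622 (+) for IFIT1, which is shown as a gene with ISRE cores that lay below the array median in both groups.
PARP9 and DTX3L: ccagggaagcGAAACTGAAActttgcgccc
PARP14: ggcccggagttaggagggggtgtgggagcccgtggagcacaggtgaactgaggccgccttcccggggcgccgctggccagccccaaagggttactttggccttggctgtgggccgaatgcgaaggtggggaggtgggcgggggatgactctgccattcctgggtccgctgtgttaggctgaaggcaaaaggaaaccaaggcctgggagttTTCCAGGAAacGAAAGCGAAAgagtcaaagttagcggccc
MX1: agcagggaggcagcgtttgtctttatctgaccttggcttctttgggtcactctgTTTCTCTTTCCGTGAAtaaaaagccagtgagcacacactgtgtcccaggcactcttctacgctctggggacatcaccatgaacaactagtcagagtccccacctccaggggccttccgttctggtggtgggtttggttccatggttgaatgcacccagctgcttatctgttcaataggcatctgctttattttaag
IRF9: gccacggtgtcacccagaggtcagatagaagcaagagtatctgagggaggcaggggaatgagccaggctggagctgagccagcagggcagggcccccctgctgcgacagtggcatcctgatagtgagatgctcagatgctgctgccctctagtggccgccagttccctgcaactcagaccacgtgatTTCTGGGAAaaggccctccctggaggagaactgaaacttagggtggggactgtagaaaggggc
IRF1: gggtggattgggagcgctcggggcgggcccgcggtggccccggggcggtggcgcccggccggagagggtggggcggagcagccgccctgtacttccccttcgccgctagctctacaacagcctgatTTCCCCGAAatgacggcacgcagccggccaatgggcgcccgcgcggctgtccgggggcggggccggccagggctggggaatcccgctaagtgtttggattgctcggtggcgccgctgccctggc
IFIT1: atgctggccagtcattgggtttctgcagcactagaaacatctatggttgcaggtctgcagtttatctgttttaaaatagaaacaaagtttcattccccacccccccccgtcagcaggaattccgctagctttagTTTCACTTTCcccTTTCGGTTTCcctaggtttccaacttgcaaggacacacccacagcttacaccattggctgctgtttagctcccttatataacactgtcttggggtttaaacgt

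In PARP14 the GAS core TTCCAGGAA and the ISRE core GAAAGCGAAA stood side by side. In the MX1 window shown the ISRE core TTTCTCTTTC, read on the other strand, overlapped the GAS core TTCCGTGAA. Another window of MX1 held the ISRE core GAAACCGAAA after its start site and no GAS core. The windows of IRF9 and IRF1 held a GAS core (TTCTGGGAA and TTCCCCGAA) and no ISRE core, while that of IFIT1 held 2 ISRE cores (TTTCACTTTC and TTTCGGTTTC) and no GAS core. Over all windows, 24 of the 37 genes held an ISRE core (64.9%) against 4.38% of 27305 genes, and 11 held a GAS core (29.7%) against 9.38%. A match of letters is a description and not a site of binding.

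The response to IL-6 and the identity of the cells were read before the interferon-responsive genes. SOCS3, the feedback inhibitor that STAT3 induces, rose from 7.73 ± 0.19 in withdrawn to 11.60 ± 0.17 in restimulated samples (SD, n = 3 arrays each), a log2 difference of 3.87 (limma, adjusted p = 0.000633). All 7 plasma cell markers with a probe lay above the array median on all 6 arrays, while 0 of 4 fibroblast markers did so and EPCAM, CDH1, CD3D, LYZ, CSF1R and FCGR3A on no array. Other markers of the same lists were above the median on all 6 arrays, namely CD14 and ITGAM of the myeloid list (2 of 5), KRT8 and KRT18 of the epithelial list (2 of 4) and IL3RA and LILRA4 of the plasmacytoid dendritic cell list (2 of 3), and the CD4 probe read at the ceiling of 16 on all arrays. The mean level of the plasma cell list was 11.2 to 11.3 on restimulated and 10.8 to 10.9 on withdrawn arrays, with PRDM1 higher by 1.29 (limma, adjusted p = 0.00286). XBP1, IRF4 and SLAMF7 differed by 0.71, 0.49 and 0.41, and SDC1, CD38 and TNFRSF17 by -0.16, -0.08 and -0.05. The T and NK cell list, of which 3 of 6 genes lay above the median on all arrays and CD3D and KLRD1 on none, had a mean level of 8.83 to 8.93 on restimulated and 9.00 to 9.10 on withdrawn arrays. This mean includes the CD4 probe at the ceiling. CD8A, CD3E, NCAM1, KLRD1, CD4 and CD3D differed by -0.57, -0.18, -0.14, -0.05, 0 and 0.01. The B cell list, with 2 of 3 genes above the median on all arrays, had a mean level of 7.44 to 7.56 on restimulated and 7.60 to 7.66 on withdrawn arrays. The part of these shifts in the differences below was not tested, and in bulk RNA fewer cells of a type and less RNA per cell cannot be told apart.

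Of the 47 interferon-responsive genes, 35 lay above the array median on at least 3 arrays and entered a fit over 12697 genes, and 33 of the 35 did so on all 6 arrays. None of the 35 passed an adjusted p of 0.05 in this fit (limma, two-sided, Benjamini-Hochberg over all genes). At this threshold 0.236% of all genes were called higher and 0.00788% lower, or 0.244% in either direction. The fit included genes that read at the ceiling on all 6 arrays. Without those genes MX1 and PARP9 passed (limma, adjusted p = 0.0103 and 0.00907), among 58 genes called of 12560. Other alternatives, given at the end, called 0, 1 or 2 genes of the list. At an unadjusted p under 0.05, 9 of the 35 were higher after IL-6, or 25.7% against 3.60% of all genes, and 1 was lower, or 2.86% against 4.39%. In 10 of the 35 all 3 restimulated arrays lay above all 3 withdrawn arrays, or 28.6% against 5.80% of all genes. The opposite held for 2 of the 35, or 5.71% against 6.36%. The median log2 difference of the 35 genes was 0.15 beside 0.01 for all genes, and 28 of them had a positive difference, or 80.0% against 53.2%. The middle of the list lay between 0.02 (lower quartile) and 0.27 (upper quartile), beside a median standard error of 0.12. Only MX1 and PARP9 exceeded 0.5, which 0.819% of all genes did.

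**Figure D1:**
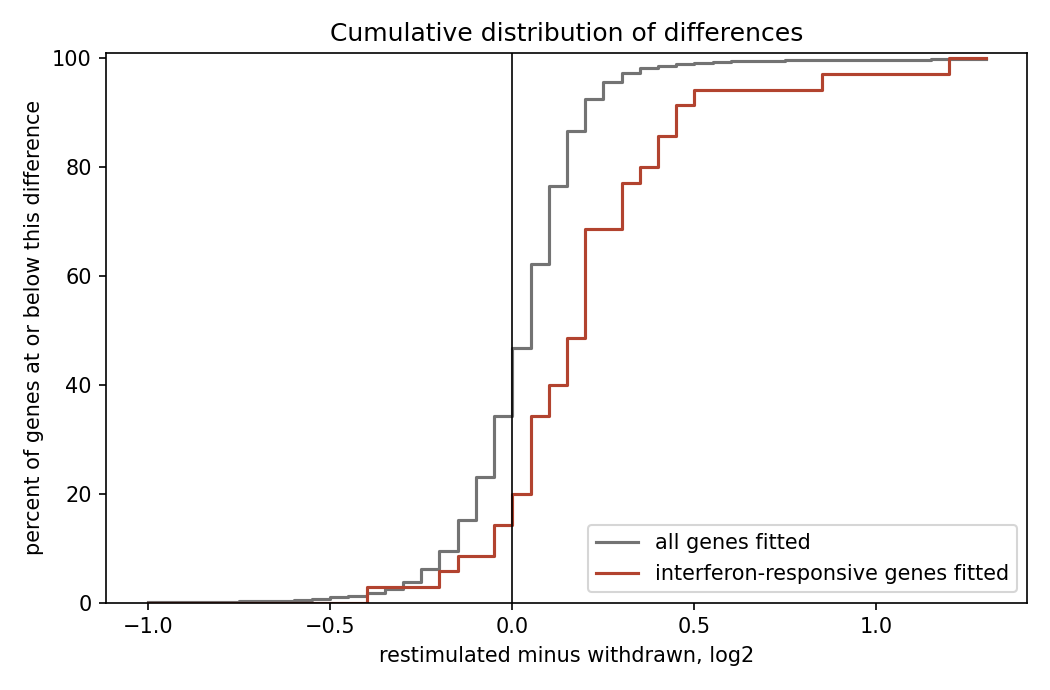
Cumulative percent of genes (y axis) at or below a given log2 difference, restimulated minus withdrawn (x axis), for the 35 fitted interferon-responsive genes and for all 12697 fitted genes. The curve of the interferon-responsive genes lies to the right over most of its course, with 20% of them and 46.8% of all genes at or below 0.

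In the 4 transcription factors among the 35 genes, IRF1, IRF2, IRF7 and IRF9, the restimulated arrays lay above all withdrawn arrays. Their median difference was 0.32, and 5.80% of all genes were separated upward. Of other STAT and IRF genes of the pathway, STAT3 and IRF4 were also separated upward. STAT2, IRF3, IRF5 and IRF8 had overlapping groups, at differences of 0.05, -0.06, -0.15 and 0.12. IRF9, the DNA-binding partner of STAT2, read 8.86, 9.14 and 8.80 on withdrawn arrays 1, 2 and 3 and 9.43, 9.49 and 9.37 on the restimulated arrays. The lowest restimulated array was above the highest withdrawn array, and the means differed by 0.50 ± 0.10 (log2, limma SE, adjusted p = 0.302), or 1.41-fold. A dimmer probe of IRF9 repeated this, with 6.91, 6.96 and 6.84 in withdrawn and 7.48, 7.58 and 7.53 in restimulated samples. Its 3 withdrawn values lay close to the array median and its replicates were tighter, and it passed when all 122102 fitted probes were tested together (0.63 ± 0.06, limma, adjusted p = 0.0128). In that test 1.74% of all probes and 0.446% of probes with a gene symbol were called higher.

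IRF1, an activator that acts at ISRE and related elements, read 8.28, 8.14 and 8.07 in withdrawn and 8.68, 8.40 and 8.58 in restimulated samples. The groups did not overlap and differed by 0.39 ± 0.10 (limma, adjusted p = 0.429). IRF7, which drives the amplification of interferon production, was at 9.54, 9.54 and 9.54 in withdrawn samples, a very narrow range, and at 9.65, 9.87 and 9.87 after IL-6. Its difference was 0.25 ± 0.08 (limma, adjusted p = 0.497), while the second probe of IRF7 differed by 0.04 with overlapping groups. IRF2, an antagonist of IRF1 at shared elements, read 8.10, 8.20 and 8.24 against 8.31, 8.54 and 8.24, so that the groups were separated by less than 0.01 at their edges. The difference of IRF2 was 0.19 ± 0.10 (limma, adjusted p = 0.725) and its second probe gave 0.17. Without restimulated replicate 2 the difference of IRF2 was 0.10.

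**Figure D2:**
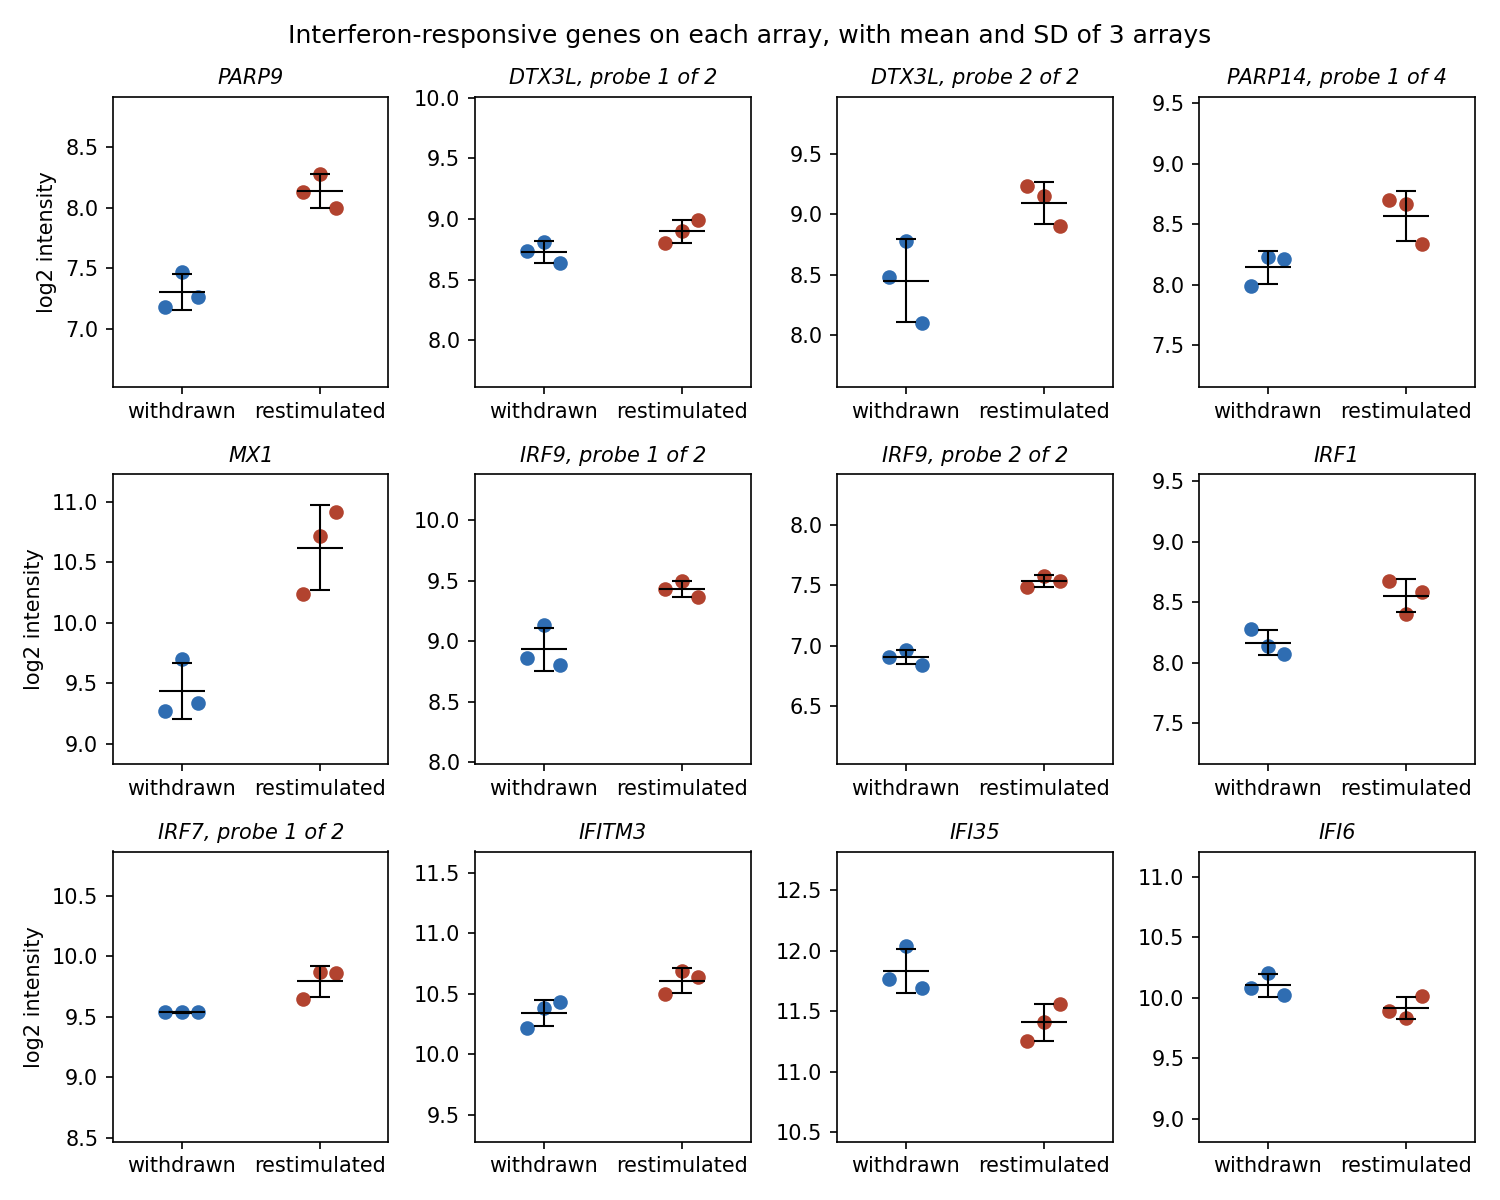
Log2 intensity (y axis) on each of the 3 withdrawn and 3 restimulated arrays for 12 probes of interferon-responsive genes, with the mean and SD of each group as bars. Restimulated points lie above all withdrawn points for PARP9, MX1, IRF1, IRF7, IFITM3, the shown probe of PARP14, both probes of IRF9 and probe 2 of DTX3L, and below them for IFI35 and IFI6.

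PARP9, DTX3L and PARP14 are neighbors on chromosome 3. PARP9 and DTX3L form a complex of an ADP-ribosyltransferase and an E3 ubiquitin ligase, and PARP14 is a further ADP-ribosyltransferase. PARP9 read 7.18, 7.47 and 7.26 on the withdrawn and 8.13, 8.28 and 7.997 on the restimulated arrays. Its difference of 0.84 ± 0.11 was 1.79-fold and had the smallest p of the list (limma, adjusted p = 0.0915 over genes and 0.0301 over all probes). Without genes at the ceiling on all arrays, the adjusted p of PARP9 was 0.00907 (limma). DTX3L had 2 probes of nearly equal mean that gave unlike values. The one with the slightly higher mean (8.81) read 8.74, 8.81 and 8.63 in withdrawn and 8.80, 8.90 and 8.99 in restimulated samples, which overlap, and differed by 0.17 ± 0.08 (limma, adjusted p = 0.696). The other (mean 8.77) read 8.48, 8.78 and 8.10 against 9.23, 9.15 and 8.90, which do not overlap, and differed by 0.64 ± 0.19 (limma, adjusted p = 0.229 over all probes). The fitted value of DTX3L therefore rests on which probe is taken. PARP14 read 7.99, 8.23 and 8.21 in withdrawn and 8.70, 8.67 and 8.33 in restimulated samples with its brightest probe. These groups did not overlap and differed by 0.43 ± 0.13 (limma, adjusted p = 0.493), and the 3 dimmer probes of PARP14 gave 0.30, 0.10 and 0.38 with overlapping groups.

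MX1 and MX2 encode dynamin-like GTPases, of which MX1 blocks influenza virus. MX1 showed the largest difference of the 35 genes, with 9.28, 9.70 and 9.34 on withdrawn and 10.24, 10.72 and 10.92 on restimulated arrays. Every restimulated array lay above every withdrawn array. The difference was 1.18 ± 0.21 or 2.27-fold (limma, adjusted p = 0.198), with a 95% interval from 0.68 to 1.69. Without genes at the ceiling on all arrays, the adjusted p of MX1 was 0.0103 (limma). MX2, which restricts HIV, read 7.23, 7.28 and 7.89 in withdrawn and 7.61, 7.46 and 7.41 in restimulated samples. Its groups overlapped and its difference was 0.03 ± 0.19, with an interval from -0.44 to 0.50. The guanylate-binding GTPases GBP1 and GBP2, classical targets of interferon-gamma, were not fitted. GBP1 lay between 6.18 and 6.63 on all arrays, and GBP2 passed the array median on 2 restimulated and 0 withdrawn arrays, with overlapping values of 6.74, 6.62 and 6.63 in withdrawn and 7.01, 6.70 and 7.07 in restimulated samples.

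Among membrane proteins, IFITM3, which traps entering viruses in endosomes, read 10.22, 10.38 and 10.43 against 10.49, 10.69 and 10.64. The groups were separated and differed by 0.27 ± 0.09 (limma, adjusted p = 0.515). BST2, or tetherin, holds budding virions at the cell surface and is abundant on myeloma cells. It read 10.61, 11.005 and 10.48 in withdrawn and 10.98, 11.04 and 11.16 in restimulated samples, so that withdrawn replicate 2 fell among the restimulated values. The difference of BST2 was 0.36 ± 0.15 (limma, adjusted p = 0.622). IFITM1 differed by 0.42 ± 0.20 with overlapping groups. IFITM2 lay at 8.25, 8.42 and 8.31 in withdrawn and 8.38, 8.39 and 8.28 in restimulated samples, a difference of 0.02 ± 0.07. The IFITM genes are close paralogs, and the share of signal that crosses between their probes was not tested.

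The 2′-5′-oligoadenylate synthetases make the messenger that switches on RNase L. OAS3 read 9.56, 9.49 and 9.55 against 9.67, 9.73 and 9.68, tight and separated groups whose difference was 0.16 ± 0.06 (limma, adjusted p = 0.583). A dimmer probe of OAS3 gave -0.10 with overlapping groups. OAS1 and OAS2 differed by 0.10 ± 0.14 and 0.08 ± 0.11, and OAS2 lay at 9.06, 9.42 and 9.16 in withdrawn and 9.24, 9.28 and 9.37 in restimulated samples, with the highest value on a withdrawn array. OASL, a relative without synthetase activity, had a negative difference of -0.20 ± 0.14 near background.

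None of the 4 RNA sensors and double-stranded RNA binding enzymes had separated groups, which over all genes 12.2% had in either direction, so that a count of 0 in 4 is near the background. DDX58 (RIG-I), which detects viral RNA with a triphosphate end, differed by 0.19 ± 0.10, and EIF2AK2 (PKR), the kinase that halts translation, by 0.19 ± 0.19. IFIH1 (MDA5), the sensor of long double-stranded RNA, read 8.07, 8.21 and 8.12 in withdrawn and 8.04, 8.15 and 8.16 in restimulated samples. Its groups were interleaved and its difference of -0.02 ± 0.07 had an interval from -0.19 to 0.16. ADAR, which edits adenosines in double-stranded RNA, differed by -0.05 ± 0.14 with its brighter probe. The second ADAR probe read 9.79, 9.83 and 9.97 against 10.14, 10.13 and 10.16, separated groups whose means differed by 0.28.

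**Figure D3:**
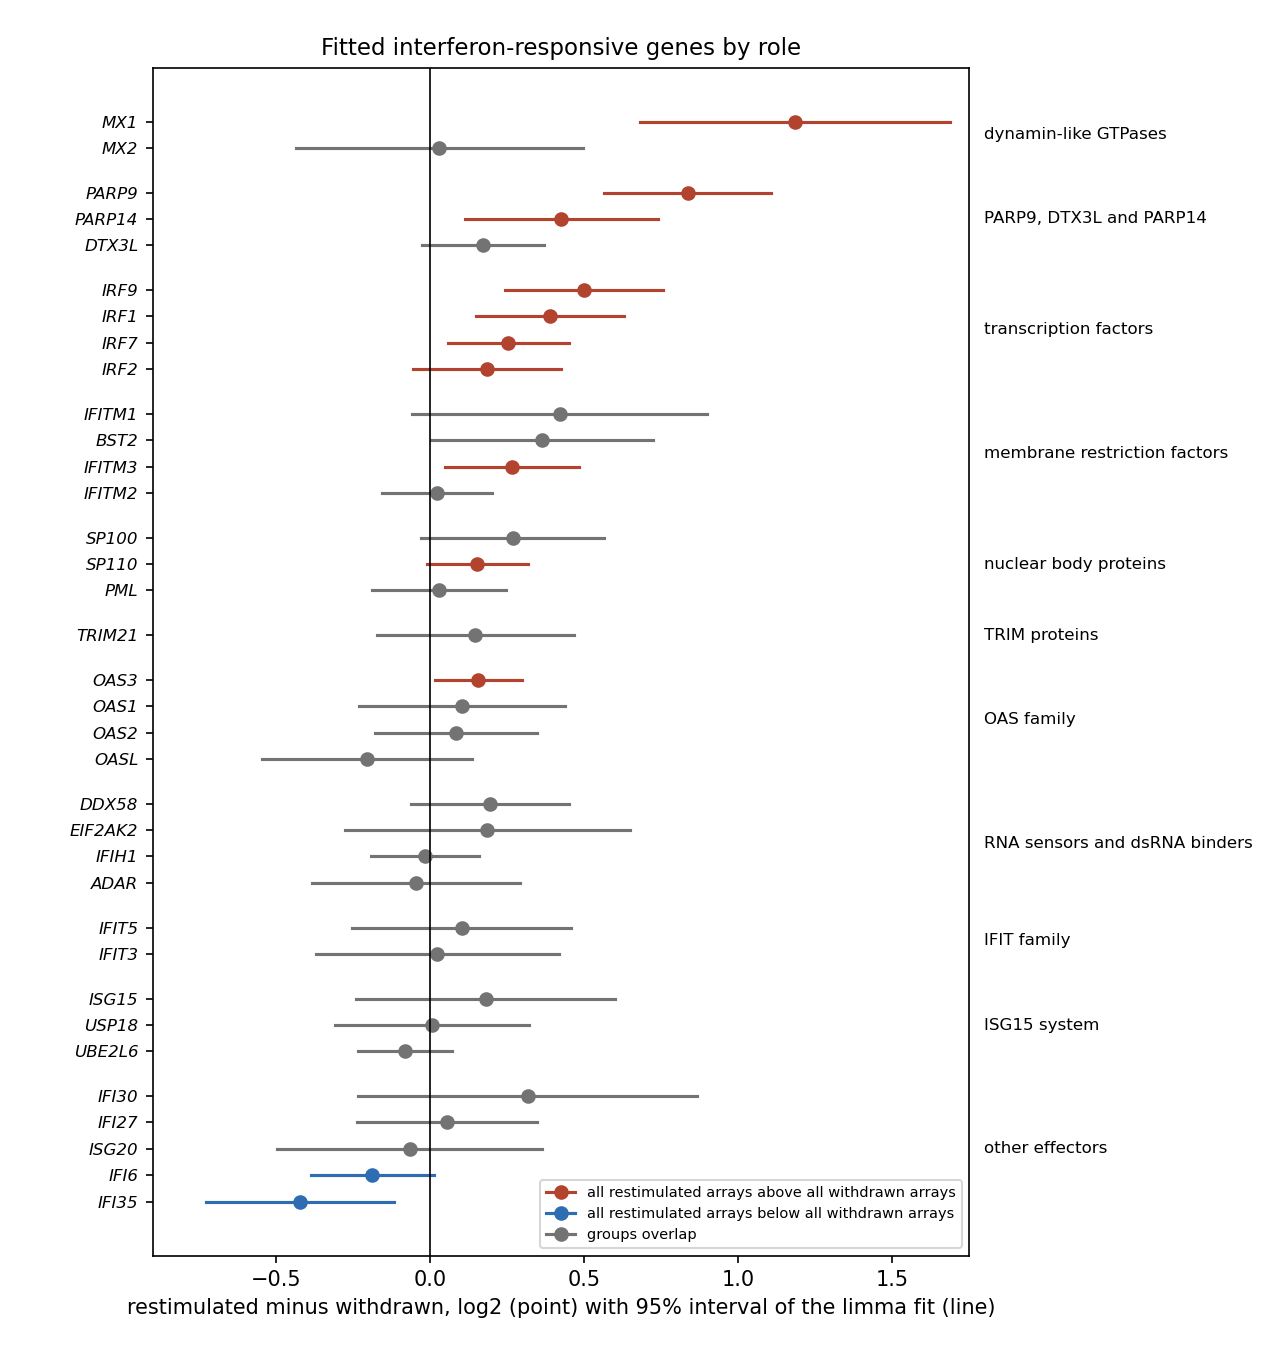
Log2 difference, restimulated minus withdrawn (x axis), with the 95% interval of the limma fit for the 35 fitted interferon-responsive genes, grouped by role (y axis). Genes whose 3 restimulated arrays all lie above (red) or below (blue) the withdrawn arrays are colored, 10 and 2 genes, and the roles run from dynamin-like GTPases with the highest median to other effectors with the lowest.

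The ISG15 system had the median difference closest to 0, at 0.005 over 3 fitted genes. ISG15 itself, the ubiquitin-like modifier, differed by 0.18 ± 0.17, UBE2L6, its conjugating enzyme, by -0.08 ± 0.06 and USP18, the protease that removes it and also blocks the interferon receptor, by 0.005 ± 0.13. USP18 read 7.12, 7.55 and 7.41 in withdrawn and 7.23, 7.41 and 7.45 in restimulated samples, fully interleaved. HERC5, the ISG15 ligase, and its relative HERC6 stayed under the array median on all 6 arrays. Of the IFIT proteins, which bind viral RNA ends, IFIT3 read 6.76, 7.05 and 6.94 against 6.65, 6.95 and 7.22 and differed by 0.02 ± 0.16. IFIT5 differed by 0.10 ± 0.14, and both lay close to the array median of 6.84 to 6.85. IFIT1, whose window holds 2 ISRE cores, read 6.51, 6.42 and 6.59 in withdrawn and 6.55, 6.56 and 6.67 in restimulated samples and was above the median on 0 arrays.

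Nuclear body proteins differed little. SP110 read 7.40, 7.36 and 7.37 against 7.46, 7.62 and 7.51, separated groups with a difference of 0.15 ± 0.07 (limma, adjusted p = 0.652). SP100 was the brightest gene of the list at 14.8 ± 0.19 in withdrawn and 15.1 ± 0.12 in restimulated samples (SD, n = 3), and its 5 probes gave differences between -0.09 and 0.27. PML, which organizes the bodies, read 9.73, 9.84 and 9.77 against 9.65, 9.90 and 9.88 and differed by 0.03 ± 0.09. TRIM21, a cytosolic antibody receptor, read 7.73, 8.17 and 8.04 against 8.08, 8.25 and 8.06, and its overlapping groups differed by 0.15 ± 0.13.

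The separated genes that were lower after IL-6 both fell among the other effectors. IFI35, a leucine zipper protein, read 11.77, 12.04 and 11.69 on withdrawn and 11.25, 11.42 and 11.56 on restimulated arrays. Its difference was -0.42 ± 0.12 (limma, adjusted p = 0.486), the lowest of the list. IFI6, a mitochondrial and endoplasmic reticulum protein that opposes apoptosis, read 10.08, 10.20 and 10.02 against 9.89, 9.83 and 10.02, with the closest arrays less than 0.01 apart. The difference of IFI6 was -0.19 ± 0.08 (limma, adjusted p = 0.649). IFI30, a lysosomal thiol reductase of antigen processing, differed by 0.32 ± 0.22 and ISG20, an exonuclease, by -0.07 ± 0.18. IFI27 read 7.33, 7.003 and 7.40 in withdrawn and 7.37, 7.23 and 7.30 in restimulated samples, a difference of 0.05 ± 0.12.

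The remaining 12 genes with a probe lay below the array median on at least 4 of 6 arrays and were not tested. They include strongly interferon-induced genes such as RSAD2 (viperin), at 6.48, 6.37 and 6.501 in withdrawn and 6.55, 6.58 and 6.63 in restimulated samples, and IFI44L and XAF1, which were above the median on 0 arrays. Their other members were EPSTI1, GBP1, GBP2, HERC5, HERC6, IFI44, IFIT1, IFIT2 and TRIM22. IFI44 passed the median on 2 restimulated and 0 withdrawn arrays, with overlapping groups, since restimulated replicate 1 at 6.67 was the lowest of the 6 arrays. A single value stood out, that of EPSTI1 at 8.67 in withdrawn replicate 3 while the other 5 arrays read between 6.55 and 6.77. The second probe of EPSTI1 read 6.64 on that array and did not repeat it. A value under the array median gives only a bound on the level.

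**Figure D4:**
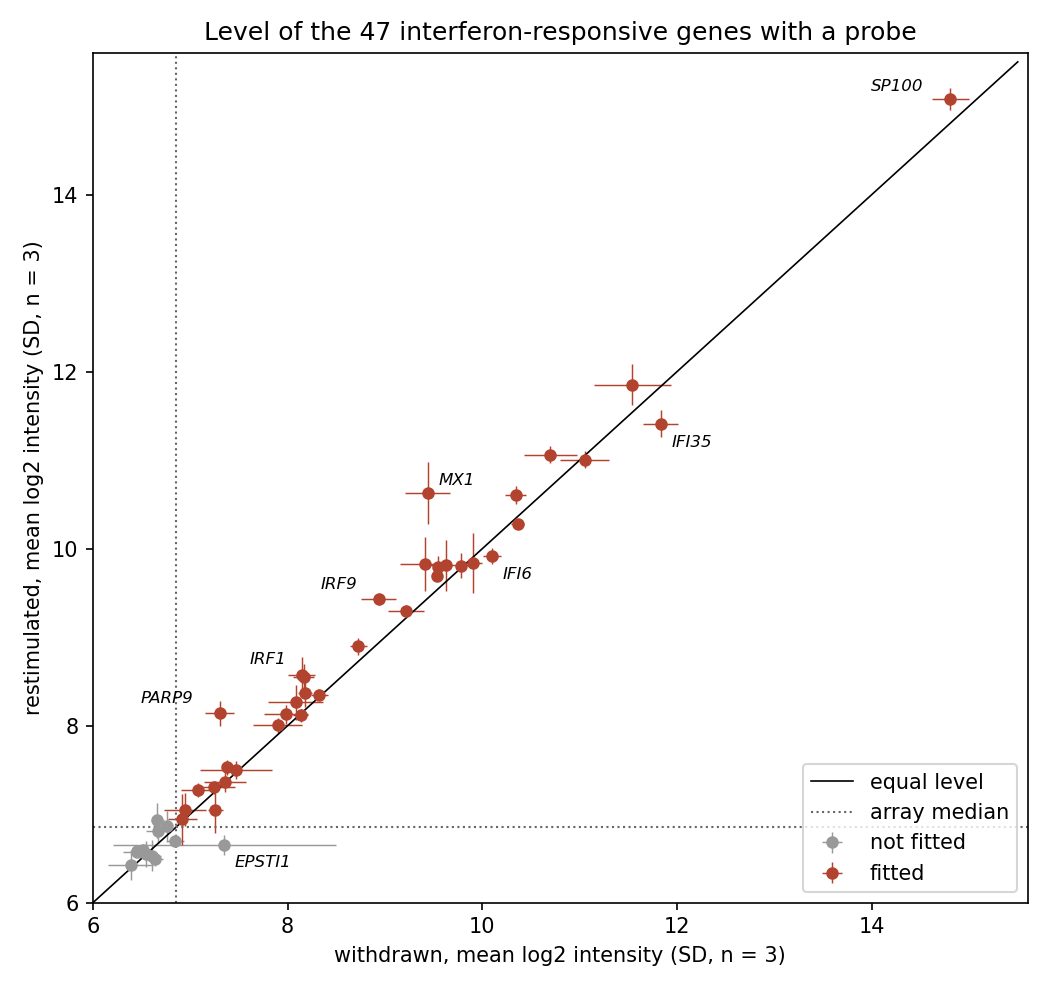
Mean log2 intensity of the 47 interferon-responsive genes with a probe in withdrawn (x axis) and restimulated (y axis) samples, with the SD of 3 arrays. Genes that were not fitted cluster at or under the dotted array median, MX1 and PARP9 lie farthest above the line of equal level, and EPSTI1 has a wide bar from 1 withdrawn array.

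The genes had 79 probes in all, of which 55 passed the filter. In 14 of the 55 the restimulated arrays were above all withdrawn arrays, against 6.15% of 18613 fitted probes with a symbol, and in 2 they were below, against 5.53%. Of 12 genes with at least 2 fitted probes, IRF9, DTX3L, PARP14, IRF2, IRF7 and OAS2 had only positive differences, while ADAR, EIF2AK2, MX2, OAS3, PML and SP100 had probes of either sign. MX1, PARP9, IRF1, IFITM3, BST2, IFI35 and IFI6 had a single probe each, so their values have no second probe behind them.

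**Figure D5:**
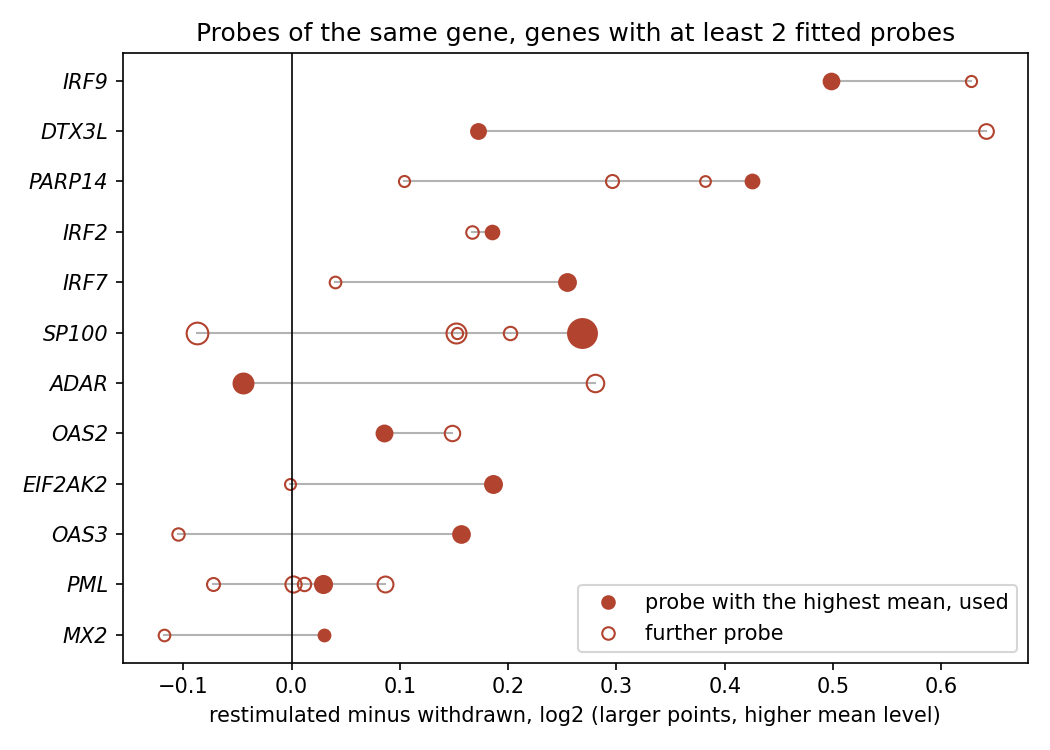
Log2 difference, restimulated minus withdrawn (x axis), of every fitted probe for the 12 genes with at least 2 fitted probes (y axis), with the probe used for the gene filled and larger points for a higher mean level. Probes of IRF9 lie together between 0.50 and 0.63, those of DTX3L are spread from 0.17 to 0.64, and those of SP100, ADAR and OAS3 lie on both sides of 0.

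The arrays differed in how much they contributed. Withdrawn replicate 1 was the lowest of the 6 arrays for 15 of the 35 genes and the highest for 0, and its mean deviation from the 6-array mean was -0.17, against -0.03 and -0.06 on the other withdrawn arrays. Restimulated arrays deviated by 0.05, 0.12 and 0.09, and restimulated replicate 2 was the highest array for 12 genes. Without withdrawn replicate 1 the median difference of the list was 0.10 in place of 0.15, with 11 of 35 genes separated upward against 8.42% of all genes in the same 5 arrays.

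Upstream of these genes, 29 of 32 listed signaling components were fitted, from a list of receptors, kinases, STATs, sensors and regulators. In this list SOCS1 and SOCS3, inhibitors of JAK kinases, were called higher (limma, adjusted p of 0.05) and 0 genes lower. Of all genes 0.236% were called higher and 0.00788% lower. The log2 difference of SOCS1 was 0.88 ± 0.06 (limma, adjusted p = 0.00995). STAT3 read 9.83, 9.85 and 9.82 in withdrawn and 10.36, 10.40 and 10.18 in restimulated samples. Its groups did not overlap and differed by 0.48 ± 0.08 (limma, adjusted p = 0.171). CGAS, the sensor of cytosolic DNA, was higher by 0.74 ± 0.14 without overlap (limma, adjusted p = 0.248), and IRF4, the master regulator of plasma cells, by 0.49 ± 0.11. STAT2, JAK1, TYK2 and IRF3 differed by 0.05, 0.07, -0.06 and -0.06, all with overlapping groups. Of 16 interferon genes with a probe only IFNL1, IFNL2 and IFNA4 were fitted, at differences of -0.28, -0.09 and -0.13. The groups of IFNL1 and IFNL2 were separated downward, against 6.36% of all genes, and those of IFNA4 overlapped. IFNB1 and IFNG read below the array median on all arrays.

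A wider list of 63 further interferon-responsive genes was compared with the members. Of 55 fitted genes none was called (limma), against 0.244% of all genes. Upward separation was seen in 6 of the 55 and downward in 2, against 5.80% and 6.36% of all genes, and the median difference was 0.04. TAP1, the peptide transporter of antigen presentation, read 11.93, 11.98 and 12.11 in withdrawn and 12.55, 12.69 and 12.47 in restimulated samples. It differed by 0.57 ± 0.09 (limma, adjusted p = 0.152), and CD274 (PD-L1) and APOL6 differed by 0.34 ± 0.10 and 0.52 ± 0.14, also without overlap. TMEM140 was lower by a difference of -0.76 ± 0.21 (limma, adjusted p = 0.459). In a list of STAT3 targets 10 of 25 fitted genes were called higher (limma, adjusted p of 0.05), against 0.236% of all genes. None was called lower, against 0.00788% of all genes. The median difference was 0.65, with PIM2 at 1.81 ± 0.07 (limma, adjusted p = 0.00074). BCL6, also among those called, entered the fit only through its restimulated arrays. Its withdrawn values lay below the array median, so its rise is only bounded, at 2.80-fold or more. The difference between these lists was not tested.

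The sequence windows were set beside the values as a description. Of the 10 genes separated upward, 8 had a window, and 5 of the 8 held a GAS core (IRF1, IRF9, MX1, PARP14 and SP110). So did 10 of all 27 fitted genes with a window, which include these 8, and 1 of 9 genes that were not fitted. An ISRE core was found in 5 of the 8, in 17 of the 27 and in 7 of the 9. Of all genes with a window, 9.38% held a GAS core and 4.38% an ISRE core. A gene counted if any of its windows held a core, and the GAS core of MX1 lay only in the window shown. BST2, whose groups overlapped, held 2 cores of each kind, and IFI35, the lowest gene, held a GAS core, TTCACGGAA.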

How the data were processed

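RNA of 6 samples (3 restimulated, 3 withdrawn) was measured on single-color arrays. The authors normalized the arrays between each other by the quantile method and deposited log2 intensities, 1 value per spot. Of tools, R 2.9.0 and limma stand in the submitters' processing notes. No source used here says if background was subtracted. Sorted values of the arrays differed by at most 0.199 and 1715 spots read 16 on all arrays, so the values were used as deposited.

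Rows of the value table were matched to the 27216 probes with a gene symbol through the geometry of the grid, which the files do not state. The first 2 probes of a gene then correlated in mean level with r = 0.431 over 7157 genes, against 0.0190 under equal numbers, a correlation across genes. All gene names rest on this match. Symbols were updated with a RefSeq gene table (GRCh38.p14).

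Each gene was represented by its probe with the highest mean and was fitted if that probe exceeded the array median on at least 3 arrays, since negative control spots could not be told apart. The test was that of limma 3.58.1 (R 4.3.3; lmFit and eBayes, two-sided, without a replicate block) with Benjamini-Hochberg adjustment over 12697 genes at 0.05. The computation was tested on simulated data of 12697 genes. It recovered 13 of 67 changed genes at a true log2 difference of 0.5, 56 of 67 at 1 and 66 of 66 at 2. The 48 genes, their roles and the context lists were chosen with earlier results of these data known. All 48 genes are accounted for, with values on every array for genes of unadjusted p under 0.05, with separated groups or called under an alternative, and for those that differed least in a role. Of the context lists, genes called and up to 4 of the smallest p are named, with fixed pathway genes. Other genes, and the sequences printed, were picked with their values in view. Promoter windows came from RefSeq (250 bases before to 50 after a start). Differences are given with the standard error of the fit. Alternatives covered the filter, the prior, the probe rule, the normalization, the block and each array left out.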

Additional observations from a re-analysis of the deposited data

How the results depend on the processing

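The count of 0 interferon-responsive genes called (limma, adjusted p of 0.05) held without a filter, with probes above the median on all 6 arrays, with a gene's probes averaged, and on leaving out each array (0 to 0), where the count over all genes ranged from 6 to 15 in place of 31. Under the interquartile range filter above 0.5, 2 members were called (MX1 and PARP9) of 67 genes called among 274 fitted. That filter left 2 members, with 2 separated upward, 0 downward and a median of 1.01. A range over all 6 arrays is wide where the groups differ, so this filter favors genes with the difference that is then tested. A trended, robust prior called 2 members of 78 genes, and leaving out genes at the ceiling on all arrays called 2 of 58. With all probes tested together 1 gene of the list, PARP9, was called by its used probe among 2239 probes, and cyclic loess called 1, also PARP9. Over these alternatives the adjusted p of PARP9 ranged from 0.00314 to 0.418 and that of MX1 from 0.00521 to 0.649, and IRF9 was called by its used probe in none. The 13 genes with an unadjusted p under 0.05 or separated groups were the only ones followed through the alternatives. Their differences kept their sign under every alternative run, which was largely fixed in advance. The block, the filters, the prior and the test over all probes leave a difference unchanged. Leaving out an array cannot turn the sign of a gene with separated groups. For such genes only the mean over probes and cyclic loess could have done so. Averaged over probes, IRF7 and OAS3 differed by 0.15 and 0.03. The mean over probes left 7 genes separated upward in place of 10, and leave-one-out counts, with fewer arrays to separate, ranged from 11 to 15 of 35, against 8.15% to 14.5% of all genes, with medians from 0.10 to 0.18. The replicate numbers gave correlations of 0.05, -0.02 and -0.28 between samples of the same number, and -0.22 to 0.22 between samples of unlike number. With 3 arrays per group such correlations cannot decide if samples of the same number were paired. With the replicate block 0 members and 1 gene were called. Causes of these changes were not tested. The ceiling of 16 compresses very bright probes, and values near the array median bound rather than measure a level.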
